A study of Mus musculus with 1 sample.

Results

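The poly(A) tails of 7 mRNAs that pluripotent mouse cells share across states, Pou5f1, Sox2, Sall4, Utf1, Lin28a, L1td1 and Tdgf1, were measured molecule by molecule in wild-type 24h-EpiLCs. The 7 genes were listed by name, with earlier results of these data known, and were taken from 12835 genes with at least 1 transcript. All 7 reached 10 transcripts in both replicates, the minimum used. EpiLCs are epiblast-like cells made from embryonic stem cells (ESCs) by culture with activin A, bFGF and KSR, and they serve as a culture model of the epiblast soon after implantation. The cells were wild type (strain ICR), were collected 24 h after the start of the ESC to EpiLC transition, and made up 1 group with 1 sample. PAIso-seq reads full-length cDNA with its tail on the PacBio platform, several passes per molecule. The sample held 2 replicates marked by barcodes, numbered here by barcode, since their match to the submitters' numbering was not stated. The study's text calls the replicates independent, without saying whether they came from separate cultures, so the spread between them may be technical. The study set wild-type cells beside cells that lack the deadenylase Cnot8, and the latter were not used here.

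Pluripotency rests on a small circuit of transcription factors that bind each other's genes, joined by chromatin and RNA-binding proteins and by signalling receptors of the epiblast. The factors considered here are not particular to the naïve state, since they are used in naïve, formative and primed cells alike. An mRNA receives its poly(A) tail at 3′ end cleavage, the tail is then shortened in the cytoplasm by deadenylases such as the CCR4-NOT complex, and bases other than A can be built in or added to its end. U residues added to short tails are known as a mark of mRNAs on the way to decay.

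A total of 246316 nuclear transcripts were counted in replicate 1 and 455660 in replicate 2, among reads with at least 7 passes. The 7 genes supplied 923 and 2033 of them, or 0.375% and 0.446%. L1td1 alone made up 59.8% of these 2956 transcripts, so values pooled over the 7 genes are largely values of L1td1. The median number of passes was 32 for the 7 genes and 35 for all nuclear transcripts. Intervals are 95% intervals, Wilson intervals for shares and exact order-statistic intervals for medians. The reads carry no molecular identifiers, so intervals cover counting error only. With 1 group, no p-value was computed, and a difference was set against the spread between the 2 replicates.

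The label of the cells was checked against marker genes. Of 8 genes of epiblast-like cells, 7 were detected, with 437 and 668 transcripts in replicates 1 and 2, and Zic2 was at 0. Dnmt3a (194 and 300) and Dnmt3b (148 and 151) supplied most of them, while Fgf5 had 19 and 18 and Foxd3 1 and 8. Naïve genes were present as well, with 376 and 914 transcripts over a list of 16. Zfp42 (129 and 372), Fgf4 (104 and 297) and Nr0b1 (80 and 121) supplied most of them. Esrrb had 20 and 20, while Nanog had 3 and 7, Klf4 0 and 1, and Prdm14 was at 0. Per 100000 nuclear transcripts the naïve list was at 153 and 201 and the epiblast-like list at 177 and 147. These sums do not rank the lists, which differ in size, and recovery of cDNA of different length was not corrected. Of 6 fibroblast markers, 5 (Col1a1, Col1a2, Col3a1, Acta2 and Postn) were at 0, and the list summed to 1 transcript in each replicate. Of 6 primitive endoderm markers, 5 were at 0 (0 and 1 transcripts), all 4 mesoderm markers were at 0, and trophoblast and neural markers summed to 4 and 3 and to 10 and 5 transcripts. A count of 0 allows up to 1.22 transcripts per 100000 in replicate 1 and 0.658 in replicate 2, taking 3 counts as the limit. The same limit of 3 counts over n, which is lower than the Wilson bound, is given for shares of 0.

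The tail itself is a sequence in these data, and short tails with a base other than A show what the reads hold. Of 164 tails of 8 to 30 nt with at least 15 passes in the 7 genes, 38 held such a base. For each gene the tail with most passes is given 5′ to 3′, with bases other than A in capitals and T standing for U in the RNA.
Sall4: aaaTaaaaaaaaaaaaaaaaaaaaaT
Utf1: aaaaaaaaT
Lin28a: aaaaaaaaaaaaaaaaaaaaaaaaaaaT
L1td1: aaaaaaaaaaaaaaaaTT
Tdgf1: aaaaaaaaaaTaaaaTaTa
These molecules were read in 183, 163, 32, 329 and 317 passes, all in replicate 1. The tails of Sall4, Utf1, Lin28a and L1td1 end in T, whereas that of Tdgf1 holds T inside and ends in A. None of the 4 such short tails of Pou5f1 and none of the 6 of Sox2 held a base other than A.

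Pou5f1 carried the longest tails of the 7 genes. Pou5f1 encodes Oct4, the POU-domain factor at the centre of the pluripotency circuit (ENSMUSG00000024406, GRCm38 chromosome 17, 35506018 to 35510772, plus strand). The geometric mean over its transcripts, which is the tail length of a gene used here, was 109 nt in replicate 1 (n = 124 transcripts) and 106 nt in replicate 2 (n = 179), a mean of 107 nt ± 2.18 (SD, n = 2). Its median tail was 119 nt (108 to 132) and 121 nt (113 to 128), against 91 nt for all nuclear transcripts in both replicates. The pooled value stood at percentile 95.6 of the 4286 nuclear genes that reached 10 transcripts in both replicates, called tested genes here. Few Pou5f1 transcripts had short tails, since the lower quartile was 87 nt and 94.5 nt, close to the nuclear median. The upper end was less apart, with a 90th percentile of 173 nt and 171 nt, against 166 nt and 163 nt for all nuclear transcripts.

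Lin28a followed, with tails nearly as long. It encodes a cytoplasmic RNA-binding protein that blocks maturation of let-7 microRNAs (ENSMUSG00000050966, chromosome 4, 134003330 to 134018841, minus strand). Its gene tail length was 105 nt (n = 83) and 103 nt (n = 70) in the replicates, a mean of 104 nt ± 1.69 (SD, n = 2), at percentile 94.2. The medians were 112 nt (103 to 128) and 119.5 nt (97 to 128). The replicate values of Lin28a lay below those of Pou5f1 by a gap that was small beside their intervals, since the pooled values differed by 2.76 nt and the intervals of the medians overlapped in both replicates. From Lin28a down to the next gene the pooled value dropped by 21.1 nt.

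Sox2 and Utf1 came next and could not be ordered, because their replicate ranges overlapped. Sox2, the HMG-box partner of Oct4 (ENSMUSG00000074637, chromosome 3, 34650405 to 34652461, plus strand, a gene of 1 exon), had gene tail lengths of 84.8 nt and 82.6 nt. It was the least sampled gene, with 22 and 63 transcripts, and its medians of 87.5 nt (61 to 123) and 92 nt (77 to 113) had wide intervals. Utf1, a chromatin-associated factor of undifferentiated cells (ENSMUSG00000047751, chromosome 7, 139943789 to 139945112, plus strand), had 80.9 nt (n = 66) and 83.2 nt (n = 98), with medians of 93.5 nt (67 to 106) and 92 nt (76 to 112). Both genes stood in the upper middle of all tested genes, at percentiles 64.6 and 62.5. The Sox2 locus overlaps the non-coding gene Sox2ot on the same strand, which received 0 and 4 transcripts with tails of 3 to 4 nt. A share of them in the Sox2 values was not tested.

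Tdgf1 and Sall4, close to the middle of all genes, could likewise not be ordered. Tdgf1 encodes Cripto, a cell-surface co-receptor for Nodal (ENSMUSG00000032494, chromosome 9, 110939603 to 110946158, minus strand), and had a gene tail length of 79.6 nt (n = 104) and 74.2 nt (n = 184). This gap of 5.32 nt was the widest of the 7 genes, and the replicates fell on opposite sides of the middle gene. Its medians went the other way, at 79 nt (71 to 108) and 86 nt (78 to 95). The annotated copies Tdgf1-ps1 and Tdgf1-ps2 received no transcripts. Sall4, a zinc-finger transcription factor (ENSMUSG00000027547, chromosome 2, 168748332 to 168767943, minus strand), had 74.7 nt (n = 76) and 75.2 nt (n = 118), the narrowest gap at 0.550 nt. The medians of Sall4 were 86.5 nt (63 to 102) and 86 nt (67 to 100).

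L1td1 had the shortest gene tail length of the 7. It encodes an RNA-binding protein that descends from the first open reading frame of a LINE-1 element and is abundant in pluripotent cells (ENSMUSG00000087166, chromosome 4, 98726734 to 98738480, plus strand). The replicates gave 72.7 nt (n = 448) and 70.9 nt (n = 1321), a mean of 71.8 nt ± 1.25 (SD, n = 2), at percentile 37.1. Its median of 86 nt was the same in both replicates (75 to 93 and 81 to 90) and equalled the medians of Sall4 and Tdgf1 in replicate 2. In replicate 1 the median of Tdgf1 was lower, at 79 nt. The lowest place of L1td1 rests on its shortest tails, because leaving out tails under 6 nt raised it to 76.6 nt and placed Sall4, at 76.2 nt, below it.

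**Figure D1:**
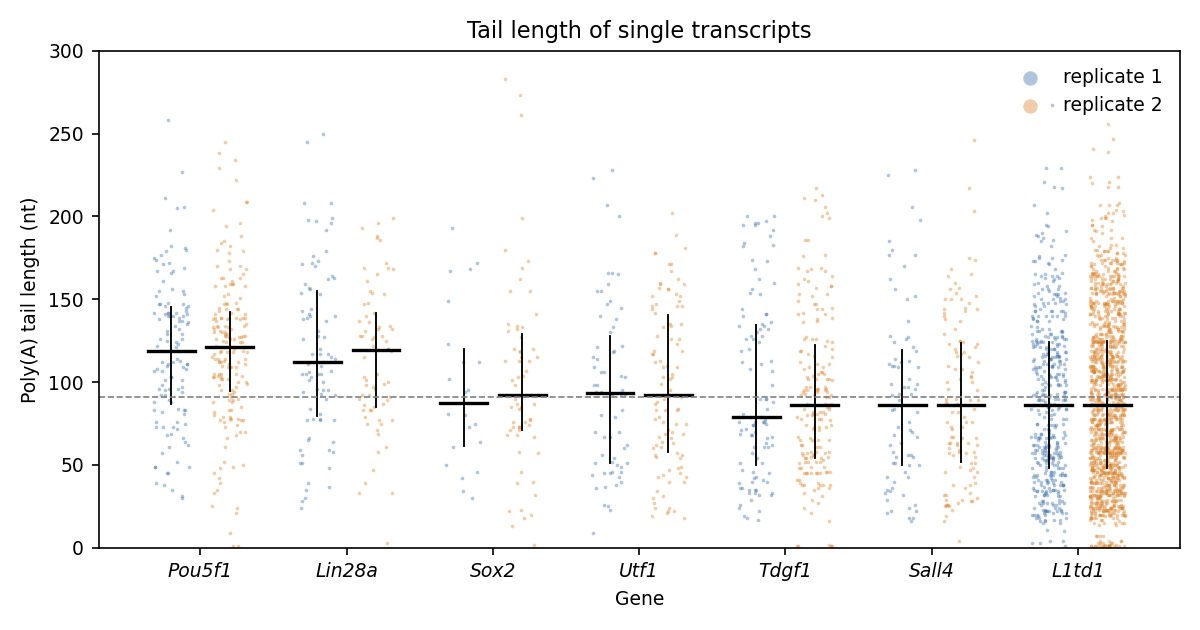
Poly(A) tail length in nt of every transcript of the 7 genes, in replicate 1 (blue) and replicate 2 (orange). Horizontal bars are medians, vertical lines run from the lower to the upper quartile, and the dashed line is the median of all nuclear transcripts (91 nt). The medians of Pou5f1 and Lin28a, at 112 to 121 nt, lie above those of the other 5 genes, at 79 to 93.5 nt.

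The 7 genes thus did not share a tail length, and their pooled values ran from percentile 37.1 to percentile 95.6 of all tested genes. The longest exceeded the shortest by 36.2 nt and 34.9 nt in the replicates (35.5 nt ± 0.930, SD, n = 2). Over all tested genes the quartiles were 65.5 and 88.1 nt, replicates pooled, a measure unlike a span between extremes. The span of other sets of 7 genes was not computed. Of the 21 pairs of genes, 19 had replicate ranges that did not overlap, the exceptions being Sox2 with Utf1 and Sall4 with Tdgf1. With 2 replicates this is a weak criterion, and neither this count nor the next was set beside pairs of all tested genes. By the intervals of the medians, which take the number of transcripts into account, 4 pairs were apart in both replicates. These were Pou5f1 with Sall4, Utf1 and L1td1, and Lin28a with L1td1. Another 3 pairs were apart in 1 replicate, and 14 in neither, so most pairs were not told apart by this criterion. Asking for separate intervals is stricter than testing a difference in median, which was not done.

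The cumulative distributions showed where the long-tailed genes departed from the rest. At 90 nt, a larger part of the Pou5f1 transcripts was still to come, as 72.6% and 77.1% of them had tails over 90 nt in replicates 1 and 2. The same share was 71.1% and 68.6% for Lin28a. It was 47.1% and 46.8% for L1td1 and 50.6% in both replicates for all nuclear transcripts.

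**Figure D2:**
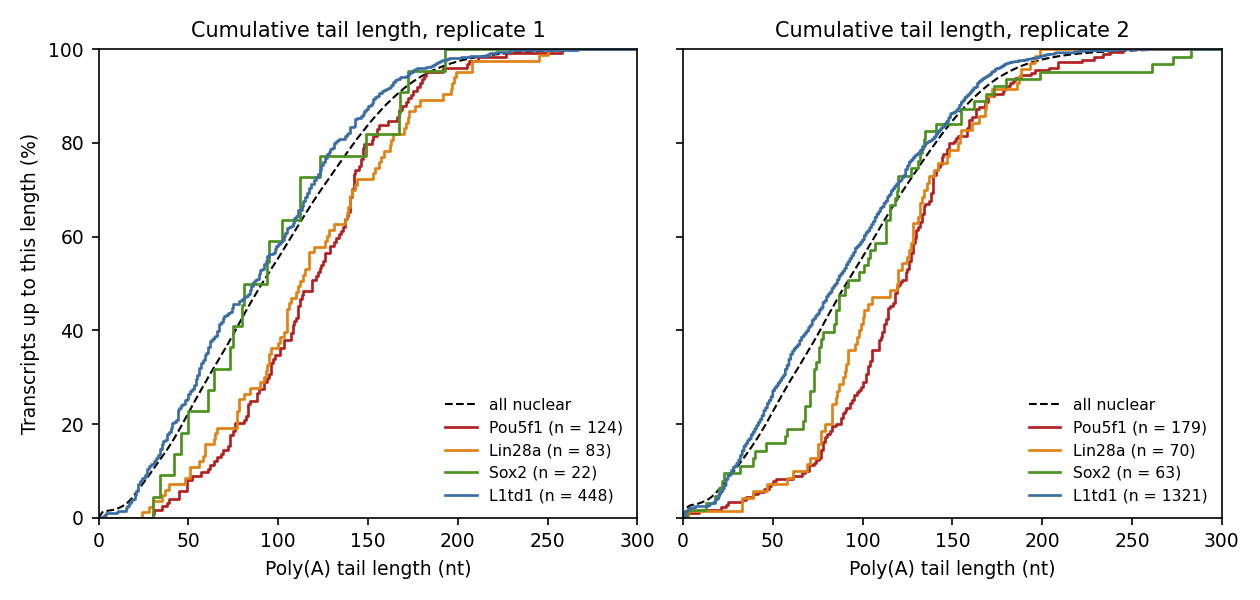
Cumulative share of transcripts (%) up to each poly(A) tail length (nt) in replicate 1 (left) and replicate 2 (right), for Pou5f1, Lin28a, Sox2, L1td1 and all nuclear transcripts (dashed). The curves of Pou5f1 and Lin28a run to the right of the dashed curve over most of the range in both panels, and that of L1td1 runs slightly to its left.

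Short and long tails were then counted apart. Tails of up to 60 nt made up 9.68% (12 of 124; 5.62% to 16.2%) of Pou5f1 transcripts in replicate 1 and 8.38% (15 of 179; 5.14% to 13.4%) in replicate 2. For Lin28a the share was 15.7% (9.39% to 25.0%) and 8.57% (3.99% to 17.5%). All nuclear transcripts had 29.3% and 29.4%, beyond the intervals of both genes. For Sox2 it was 22.7% and 19.0%, with intervals that include the nuclear share. Shares below the nuclear one in both replicates were found for 3 of 7 genes (Pou5f1, Sox2 and Lin28a), against 31.4% of all tested genes. Sall4, at 35.5% and 32.2%, and L1td1, at 35.3% (31.0% to 39.8%) and 34.9% (32.4% to 37.5%), lay above it in both replicates, as did 36.1% of all tested genes. Among these, the intervals of L1td1 did not reach the nuclear share, whereas those of Sall4 did.

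At the other end, tails over 150 nt made up 27.7% (19.2% to 38.2%) and 21.4% (13.4% to 32.4%) of Lin28a transcripts. The share was 20.2% and 20.1% for Pou5f1, and 16.1% and 15.3% for all nuclear transcripts. Only the replicate 1 interval of Lin28a lay wholly above the nuclear share among these 4 intervals. Low shares were found for L1td1, at 12.1% (9.36% to 15.4%) and 13.6% (11.9% to 15.6%), and for Sall4, at 15.8% and 11.02%, and of these only the replicate 1 interval of L1td1 lay below the nuclear share. The share was above the nuclear one in both replicates for 3 of 7 genes (Pou5f1, Sox2 and Lin28a), against 26.9% of all tested genes. The long gene tail length of Pou5f1 thus came with few tails of up to 60 nt. Its share of tails over 150 nt was within counting error of the nuclear share in each replicate taken alone. With the replicates pooled, the Pou5f1 share was 20.1% (61 of 303), and its interval lay wholly above the pooled nuclear share of 15.6%.

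**Figure D3:**
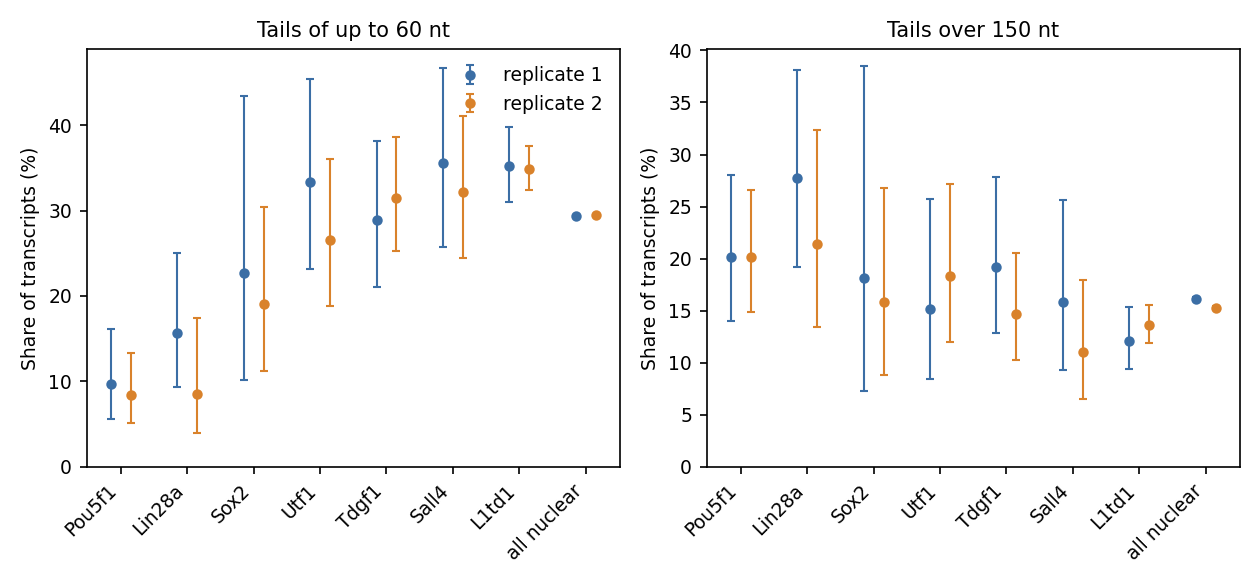
Share of transcripts (%) with tails of up to 60 nt (left) and over 150 nt (right) for each gene and for all nuclear transcripts, with points for replicate 1 (blue) and replicate 2 (orange) and bars for 95% Wilson intervals. On the left, Pou5f1 and Lin28a (8.38% to 15.7%) stand below the nuclear shares of 29.3% and 29.4%, and on the right the replicate 1 interval of Lin28a (19.2% to 38.2%) lies above the nuclear share.

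Set against all tested genes, the 7 genes as a list stood little above the middle. Their median gene tail length in replicates 1 and 2 was 80.9 nt and 82.6 nt, and the middle of 4286 genes was 78.0 nt and 77.9 nt. The difference was 2.92 nt and 4.68 nt (3.80 nt ± 1.25, SD, n = 2), positive in both replicates, and 5.08 nt when the replicates were pooled. Values above the middle gene in both replicates were found for 4 of 7 genes (Pou5f1, Lin28a, Sox2 and Utf1), against 35.0% of all tested genes. Values below it in both were found for 2 of 7 (Sall4 and L1td1), against 35.0%. The size of the list difference depended on the summary, since it was 2 nt with medians per gene, 0.366 nt with tails of at least 15 nt, and 0.193 nt over the 6 genes that reached 30 transcripts in both replicates, which leaves out Sox2.

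A stricter rule asked that the interval of a gene's median lie wholly above the nuclear median of 91 nt in both replicates. It was met by 2 of 7 genes, Pou5f1 and Lin28a, and by 5.97% of all tested genes. The converse rule, wholly below, was met by none of the 7 and by 3.17% of all tested genes. In L1td1 the interval was below 91 nt in replicate 2 (81 to 90) but not in replicate 1 (75 to 93).

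**Figure D4:**
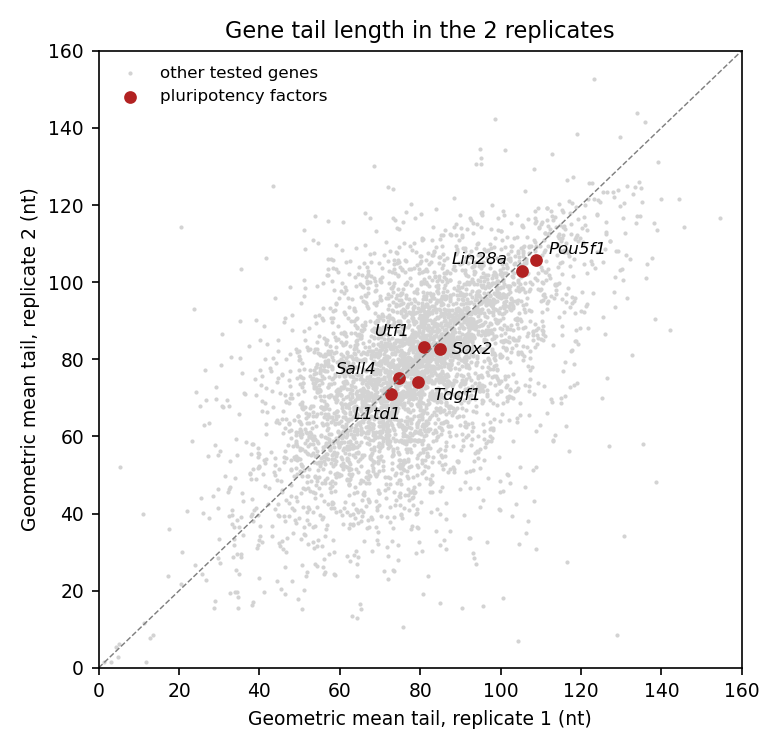
Geometric mean tail length (nt) of 4286 nuclear genes in replicate 1 (horizontal) and replicate 2 (vertical), with the 7 pluripotency factors in red and the line of equal values dashed. The 7 genes lie close to the line, with replicate gaps of 0.550 to 5.32 nt, and Pou5f1 and Lin28a stand apart from the other 5 at over 100 nt on both axes.

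The replicates gave close values for these genes. Over the 1775 nuclear genes that reached 30 transcripts in both, the median gap was 6.71 nt. The gaps of Sall4, L1td1, Utf1, Lin28a, Pou5f1 and Tdgf1, which all reached this depth, were 0.550, 1.77, 2.32, 2.39, 3.08 and 5.32 nt, each smaller than that median. Genes of like depth were not compared, so close values are not shown to be particular to these genes. Sox2, below this depth, had a gap of 2.24 nt.

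The number of transcripts did not agree as well. Each value is a share of nuclear transcripts within a replicate, and levels were not compared between genes, because recovery of cDNA of different length was not corrected. Per 100000 nuclear transcripts, Lin28a was at 33.7 (27.2 to 41.8) in the first replicate and at 15.4 (12.2 to 19.4) in the other, a ratio of 2.19. This was the 1 gene of 7 whose level was at least 2-fold apart, against 11.7% of all tested genes. In L1td1 the level went the other way, at 182 per 100000 (166 to 200) and 290 (275 to 306). In such bulk samples, fewer cells with an mRNA and less mRNA per cell cannot be told apart. Pou5f1 was at 50.3 and 39.3, Sall4 at 30.9 and 25.9, Utf1 at 26.8 and 21.5, Tdgf1 at 42.2 and 40.4, and Sox2 at 8.93 and 13.8 per 100000. Tail lengths of Lin28a and L1td1 nevertheless differed by only 2.39 nt and 1.77 nt between the same libraries.

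Tails of 1 to 5 nt were rare in these genes. They made up 5 of 923 transcripts in replicate 1 (0.542%; 0.232% to 1.26%) and 38 of 2033 in replicate 2 (1.87%; 1.36% to 2.56%), against 1.52% and 2.75% of all nuclear transcripts. The intervals of the 7 genes together lay below the nuclear shares in both replicates, and both groups had more such tails in replicate 2. L1td1 held 33 of the 43 such tails, and its own intervals, 0.478% to 2.59% and 1.47% to 3.05%, included the nuclear shares. Without L1td1 the pooled share fell from 1.45% to 0.842%. In Tdgf1 there were 0 of 104 in replicate 1, which allows a share of up to 2.88%, and 5 of 184 in replicate 2, of which 4 were 1 nt long. In Utf1 there were 0 of 164 transcripts, which allows a share of up to 1.83%. A geometric mean gives such tails much weight, and for Tdgf1 the value rose from 76.1 nt to 82.0 nt without tails under 6 nt.

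Bases other than A inside the tail were counted in tails of at least 10 nt, leaving out the first and the last base. They occurred in 74 of 917 tails of the 7 genes in replicate 1 (8.07%; 6.48% to 10.01%) and in 132 of 1990 in replicate 2 (6.63%; 5.62% to 7.81%). All nuclear tails had 8.27% and 7.02%, within these intervals. Per 1000 tail bases there were 1.15 and 0.919 non-A bases, against 1.17 and 0.985 for all nuclear tails. Shares below the nuclear one in both replicates were found for 3 of 7 genes (Pou5f1, Sox2 and Tdgf1), against 32.0% of all tested genes, and shares above it in both for 1 of 7 (Utf1), against 23.3%. Among single genes, Lin28a had 5 of 83 tails (6.02%; 2.60% to 13.3%) in replicate 1 and 10 of 69 (14.5%; 8.07% to 24.7%) in replicate 2, and only the latter interval lay above the nuclear share. For Tdgf1, 7 of 104 (6.73%) and 6 of 179 tails (3.35%; 1.55% to 7.12%) held such a base. The order of the genes by this share therefore differed between replicates at this depth.

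The kind of base, counted base by base and without intervals, differed between replicates. A tail could give more than 1 base, as 101 bases came from 74 tails in replicate 1 and 172 from 132 in replicate 2. Of 273 internal non-A bases in the 7 genes, 53.8% were T, 31.5% C and 14.7% G, and of those in all nuclear tails 45.9% were T, 33.3% C and 20.8% G. In the 7 genes T made up 44.6% in replicate 1 and 59.3% in replicate 2, and L1td1 gave 76 of the 102 T bases of replicate 2. These counts include the first T of tails that end in TT. G made up 22.8% and 9.88%, against 19.8% and 21.4% in all nuclear tails, so the replicates lay on opposite sides of the nuclear share. In L1td1 itself C led in replicate 1, at 46.7% against 28.9% T, and T led in replicate 2, at 65.5%. The share of G in L1td1 was 24.4% of 45 bases in replicate 1 and 7.76% of 116 in replicate 2. Lin28a had no G among 24 such bases, and 0 of 152 of its tails held one, which allows a share of up to 1.97%. This limit includes the 1.84% of all nuclear tails, so a lack of G in Lin28a was not shown. Of the internal non-A bases of the 7 genes, 27.7% in replicate 1 and 41.9% in replicate 2 were among the last 10 bases considered, on opposite sides of the nuclear shares of 35.2% and 34.8%. Pou5f1 tails ended in G in 5 of 124 transcripts of replicate 1 (4.03%; 1.73% to 9.09%) and in 0 of 179 of replicate 2, which allows a share of up to 1.68%. All nuclear transcripts had 0.911% and 0.573%, so only replicate 1 lay above the nuclear share.

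**Figure D5:**
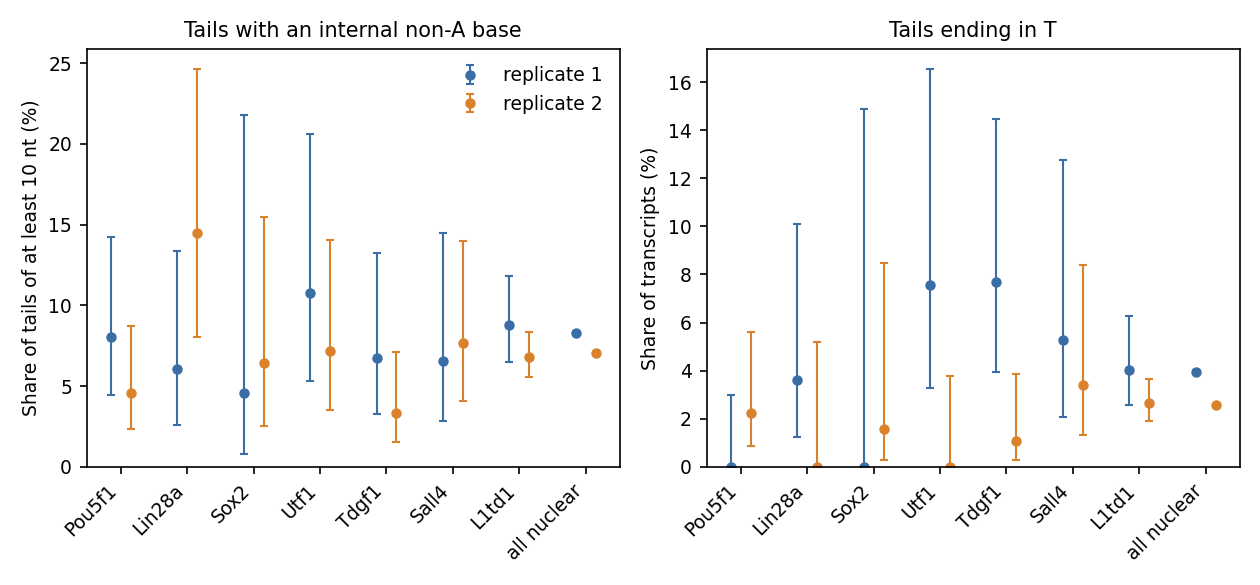
Share (%) of tails of at least 10 nt with an internal base other than A (left) and of transcripts with tails that end in T (right), for each gene and all nuclear transcripts, in replicate 1 (blue) and replicate 2 (orange) with 95% Wilson intervals. On the left most intervals include the nuclear shares of 8.27% and 7.02%. On the right the replicate 1 points of Utf1 and Tdgf1 (7.58% and 7.69%) stand above their replicate 2 points (0% and 1.09%).

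T at the very end of the tail, which stands for U, was more frequent in short tails of the 7 genes together and of all nuclear transcripts. Among tails of 6 to 30 nt it was the last base in 13 of 71 tails of the 7 genes in replicate 1 (18.3%; 11.02% to 28.8%) and in 21 of 163 in replicate 2 (12.9%; 8.58% to 18.9%). All nuclear tails of this class had 18.3% and 13.4%, within the intervals. Among tails over 30 nt the share was 2.95% and 1.36% for the 7 genes and 2.57% and 1.64% for all nuclear tails. Most tails of this short class came from L1td1, with 8 of 46 ending in T in replicate 1 (17.4%) and 21 of 126 in replicate 2 (16.7%). The other 6 genes had 5 of 25 in replicate 1 and 0 of 37 in replicate 2, which allows a share of up to 8.11%. Tdgf1 had T ends in 0 of 12 short tails, which allows up to 25%, and in 10 of 271 tails over 30 nt. Of the latter, 8 of 97 were in replicate 1 (8.25%; 4.24% to 15.4%), above the nuclear 2.57%, and 2 of 174 in replicate 2 (1.15%). Pou5f1 had only 5 tails of 6 to 30 nt and Lin28a only 3, so their ends cannot be described.

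The short tails of L1td1 were looked at base by base, a choice made after their values were seen. Its tails of 8 to 30 nt that ended in T and were read more than 1 time are given 5′ to 3′, with bases other than A in capitals.
L1td1, 4 reads: aaaaaaaaaaaaaaaaTT
L1td1, 3 reads: aaaaaaaaaaaaaaaaaaaaaaTT
L1td1, 2 reads: aaaaaaaaaaaaaaaaaaaaaT
L1td1, 2 reads: aaaaaaaaaaaaaaaaaaTT
L1td1, 2 reads: aaaaaaaaaaaaaaT
Of these, the tails with 3 reads and those of 20 nt came from replicate 2, and those of 15 nt from replicate 1. A run of at least 2 T closed 2 of 46 L1td1 tails in replicate 1 (4.35%; 1.20% to 14.5%) and 18 of 126 in replicate 2 (14.3%; 9.23% to 21.5%). All nuclear tails of this class had 9.25% and 6.70%. The replicates therefore lay on opposite sides of the nuclear share, although the sum of all T ends was alike. Ends with 1 T ran the other way, at 13.0% and 2.38% in L1td1 and 9.09% and 6.72% in all nuclear tails. Among 29 nuclear genes with 40 or more such tails per replicate, 19 genes exceeded the L1td1 share of T runs in replicate 1, and 1 gene in replicate 2. The longest run was 3 T, in L1td1 as in all nuclear tails.

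Genes whose tail distributions resembled those of the 7 were sought by the Kolmogorov-Smirnov distance, which is the largest gap between 2 cumulative curves, taking the larger value of the replicates. Candidates were 895 nuclear protein-coding genes that reached 50 transcripts in both replicates, a depth that Sox2 did not reach. Nearest to Pou5f1 were Rhox5 (0.0766), Eno1b (0.0809) and Tuba1a (0.0816), and nearest to Lin28a were Pfn1 (0.0685), Atp5b (0.0746) and Fasn (0.0928). For Sall4 the nearest genes were Hnrnpf (0.0450), Serbp1 (0.0560) and Eif3d (0.0572). L1td1 was nearest to Sf3b2 (0.0475), and then to Hnrnpf and Serbp1, which also stood beside Sall4. Utf1 was nearest to Hspd1 (0.0602) and Tdgf1 to Trim28 (0.0681). The median distance to all candidates was 0.309 for Pou5f1 and 0.281 for Lin28a and 0.150 to 0.168 for the other 4. By this median the long-tailed pair lay farther from the candidates, and distances were not compared gene by gene.

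Other genes of pluripotency were described for comparison. Of 16 naïve genes, 15 were detected and 6 had enough transcripts, of which 2 lay above the middle gene in both replicates and 3 below. In replicates 1 and 2 their medians were 63.5 nt and 79.1 nt, on opposite sides of the middle gene. The longest and the shortest well-sampled naïve genes were Fgf4, a growth factor, at 82.6 nt, and Zfp42, which encodes Rex1, at 52.6 nt. Of 12 formative genes, 7 had enough transcripts, and 2 lay above (Dnmt3b and Pou3f1) and 5 below, with medians of 73.7 nt and 69.0 nt. They ranged among well-sampled genes from the de novo DNA methyltransferase Dnmt3b at 83.5 nt to the homeobox factor Otx2 at 58.4 nt. Of 20 general cofactors, 15 had enough transcripts, and 4 lay above and 7 below, with medians of 74.1 nt and 67.3 nt. Their longest and shortest were Dnmt3l, a cofactor of DNA methylation, at 89.6 nt and Rif1, a chromatin protein, at 33.4 nt. The Pou5f1 and Lin28a values of 107 nt and 104 nt exceeded every well-sampled gene of these 3 lists.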

How the data were processed

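Genes, lists and tests were chosen with earlier results of these data known. The authors made circular consensus reads with ccs (version 4.2.0), mapped them to mm10 with minimap2 (2.17) and assigned genes with featureCounts (2.0.1), tools that their methods or processing notes name. Soft-clipped 3′ bases gave the tail, and reads without a tail were removed. Their methods also describe a filter that drops tails with fewer than 4 A among the first 8 bases, yet 36 tails of the 7 genes under 4 nt are in the table (27 of L1td1), and they were kept here. The deposited table holds, per read, the barcode, gene, number of passes, whole-number counts of A, T, C, G and non-A bases, and the tail sequence. None of these values is normalized.

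Here, reads with at least 7 passes were kept. Tail length was all bases of the tail, and the gene value was the geometric mean over transcripts. Genes were placed with GENCODE vM21 (GRCm38), in which 12835 of 12842 identifiers were found. Mitochondrial genes were left out. Genes were tested if they reached 10 transcripts in both replicates. Values are per replicate, pooled, or mean ± SD. No p-value was computed. The 7 genes are all named, as are the nearest 3 genes in distribution, the longest and shortest gene of each list that reached 30 transcripts in both, and the tail with most passes. Alternatives changed the pass filter, replicates, shared wells, tail definition, gene summary and gene filter. The run of T ends and the values without L1td1 were added after seeing the data. The scripts were tested on simulated tails. Tables were computed in Python (3.11.15) through pandas (2.3.3) over numpy (2.4.6) with scipy (1.17.1), and drawn by matplotlib (3.10.9).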

Additional observations from a re-analysis of the deposited data

Results flagged for a closer look

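Outside the comparisons, 2 signals were present in data not otherwise used. Sox2ot, which overlaps Sox2 on the same strand, had 4 transcripts, all in replicate 2. Reads of the 7 genes with fewer than 7 passes numbered 245, with a median tail of 96 nt and a geometric mean of 84.3 nt, against 92 nt and 77.6 nt in the reads used. Of them, 162 came from L1td1 (78.2 nt).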

How the results depend on the processing

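No paired analysis was possible because only wild-type cells were given. The sign of the list difference stayed positive in 15 of 15 alternatives, and a change of direction was not looked for in the other results. The pooled difference of the 7 genes from all tested genes (5.08 nt) was 6.39 nt without a pass filter, 1.27 nt and 6.88 nt with at least 15 and 30 passes, 0.892 nt and 0.366 nt with tails of at least 6 and 15 nt, 2 nt with medians, 2.23 nt with arithmetic means and 0.193 nt for genes that reached 30 transcripts in both replicates. It was 2.92 to 5.80 nt with a replicate left out, 2.92 nt without replicate 2. The span (35.7 nt) was 34.4 nt with at least 15 passes, 34.3 nt with tails of at least 6 nt and 29.7 nt with arithmetic means. The internal non-A share (7.09%) was 9.87% with the first and last base counted and 4.51% with 5 bases left out at each end. T ends of short tails (14.5%) were 38.9% in tails of 6 to 15 nt, and 8.06% without L1td1, an alternative added after seeing the data. The causes were not tested. The count above the middle gene (4) was 3 with at least 15 or 30 passes, tails of at least 15 nt, or medians per gene. It was also 3 among the 6 genes that reached 30 transcripts in both replicates. With a replicate left out, the rule applied to 1 replicate only, and the count was 4 to 5. The span was then 34.9 to 36.2 nt, internal non-A 6.63% to 8.07%, and T ends 12.9% to 18.3%. Tails of 1 to 5 nt (1.45%) made up 0.542% to 1.87%, the lowest without replicate 2. Pou5f1 and Lin28a lay above the other 5 genes in 10 of 10 alternatives, Pou5f1 above Lin28a in 9 (not with at least 30 passes), and L1td1 was lowest in 7 (not with at least 30 passes or tails of at least 6 or 15 nt). Medians and arithmetic means per gene were not among these 10. With medians Tdgf1 was lowest, at 84 nt pooled against 86 nt for L1td1, and with arithmetic means L1td1 was lowest. Depth limits Sox2 most, with 22 transcripts in replicate 1.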

Other observations

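The geometric mean tail length showed no steady trend with the number of passes, although that of Sall4 was lowest with most passes. In classes of 7 to 14, 15 to 29, 30 to 59 and at least 60 passes, the geometric mean of Pou5f1 was 109, 115, 104 and 103 nt and that of L1td1 was 69.1, 67.2, 76.0 and 73.6 nt. Tdgf1 varied without order, at 65.5, 87.1, 67.4 and 82.6 nt (n = 52, 63, 73 and 100). Sall4 was at 78.2, 78.9, 78.2 and 67.5 nt (n = 47, 38, 52 and 57). Its medians in these classes were 96, 97, 85.5 and 73 nt. PacBio wells that gave more than 1 transcript held 5.65% of the transcripts of the 7 genes and 5.70% of all nuclear transcripts. In L1td1 tails of 10 to 30 nt, an internal base other than A was found in 3 of 46 tails of replicate 1 (6.52%; 2.24% to 17.5%) and 27 of 122 of replicate 2 (22.1%; 15.7% to 30.3%), against 14.6% and 11.5% of all nuclear tails of that length. Of these, 2 of the 3 and 14 of the 27 ended in TT, and those are T runs already described, since the base before the last counts as internal. The other 1 and 13 held an internal base other than A without such an end.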
